A study of Homo sapiens with 8 samples.

Results

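The S100 genes encode small calcium-binding proteins, and 10 of them were followed here in LoVo and GP5d, established lines of human colorectal cancer cells. LoVo was derived from a metastasis of a colon adenocarcinoma and GP5d from a primary one. The 10 genes, S100A2, S100A4, S100A6, S100A8, S100A9, S100A10, S100A11, S100A14, S100A16 and S100P, were chosen as rows of the deposited table with the Ensembl IDs given below. That rule uses no measured value, but the list was drawn up with earlier results of these data known, so the counts below describe these 10 genes and are not a test of the family. All 10 were found among the 19002 genes of the table. Total RNA of each line, cultured on plastic with serum and with no treatment named, was hybridised to 4 Affymetrix arrays that the labels call biological replicates, 8 arrays in all. The labels do not say whether these were separate cultures, so p-values measure the spread between these arrays. Each line is a single model of its disease. Marker genes of colorectal epithelium and of other cell types were not analysed here, because the other row IDs could not be paired with symbols.

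Proteins of the S100 family carry a pair of EF-hand motifs, mostly form dimers, and change shape on binding calcium so that they can grip target proteins such as annexins, myosin and ezrin. Some are also released from cells, where they act on receptors such as RAGE and TLR4. In the gut, S100A8 and S100A9 form calprotectin, the neutrophil protein measured in stool as a sign of inflammation, and S100P and S100A4 have been widely studied in gastrointestinal cancers. Of the 20 protein-coding S100 genes that RefSeq lists, 16 lie on chromosome 1, where 9 of the 10 genes described here are found. S100P lies on chromosome 4.

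The lines differed in which S100 genes were high, with neither line higher throughout. S100A14, S100A4 and S100A2 were higher in LoVo by 2.72, 2.34 and 2.03 times, and S100P and S100A11 were higher in GP5d by 2.83 and 2.12 times. S100A9 was also higher in GP5d, but its LoVo values lay in the array background. Its GP5d mean was 2.66 times the end of that background, with a wide spread between arrays. The call of S100A9 was lost when low values were raised to that end (log2 difference -1.41, limma adjusted p = 0.139). These 6 of 10 genes were called different, that is, they had a limma p below 0.05 after Benjamini-Hochberg adjustment over all 19002 genes and a difference of at least 2-fold, a log2 difference of 1. Over all genes the same rule called 13.3%, with 6.12% above GP5d in LoVo and 7.2% above LoVo in GP5d. Array background gives a tall peak of low values, here taken to end at a log2 value of 2.81. Among the 8968 genes above this low peak on all 8 arrays, 19.7% were called, against 5 of the 8 S100 genes of that kind. Without a minimum difference 8 of the 10 passed, against 43.3% of all genes, and S100A10 and S100A16 were the additional ones. The test against the 2-fold limit itself (limma's treat) passed S100A14 and S100P, 2 of 10, against 6.58% of all genes. RNA of whole cultures was measured, so fewer cells expressing a gene and less of its RNA per cell cannot be told apart.

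**Figure D1:**
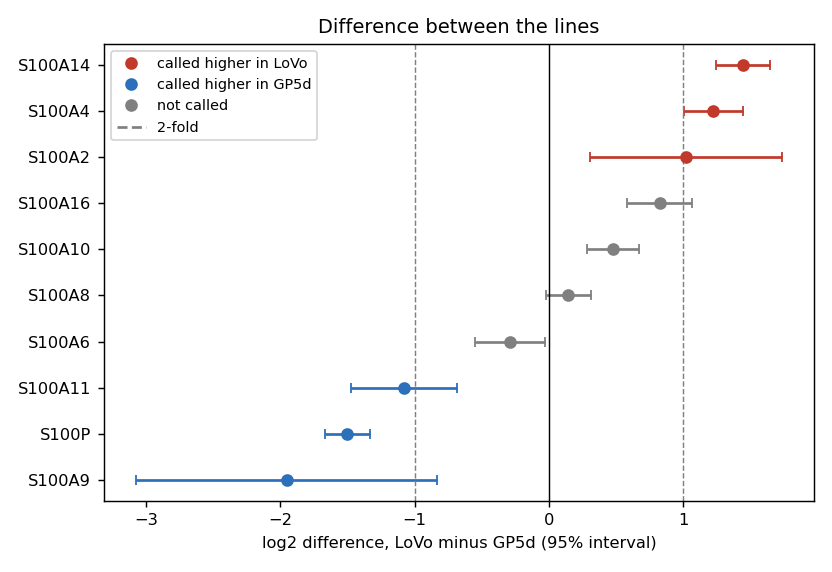
The horizontal axis is the log2 difference, LoVo minus GP5d, for each of the 10 S100 genes, with the 95% interval from the limma fit to 4 arrays per line, and the dashed lines mark 2-fold. Of the called genes, 3 lie at 1.02 to 1.45 and 3 at -1.95 to -1.08, and S100A9 and S100A2 have the widest intervals.

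The median log2 difference, LoVo minus GP5d, was 0.31 for the 10 genes and 0.05 for all genes, and the median absolute difference was 1.05 for the 10 genes, 0.25 for all genes and 0.46 for genes above the low peak on all 8 arrays. At 7 of the 10 the 4 LoVo values did not overlap the 4 GP5d values, and this held for 44.1% of all genes. Among genes above the low peak on all 8 arrays it held for 62.7%, and for 6 of the 8 S100 genes of that kind. Replicates were less alike in LoVo than in GP5d. Across genes, LoVo replicate 3 stood apart, with correlations of 0.989 to 0.991 to the rest of its line, whereas the remaining LoVo pairs gave 0.996 to 0.997 and GP5d pairs 0.997 to 0.998. For the 8 S100 genes above the low peak on all 8 arrays, SDs over the 4 arrays of a line had a median of 0.168 in LoVo and 0.0811 in GP5d, beside 0.187 in LoVo and 0.0991 in GP5d for all such genes. LoVo replicate 3 held the highest or lowest LoVo value for 6 of the 10 genes, beside 70.2% of all genes, and LoVo replicate 1 did so for 7 of the 10, beside 47.5% of all genes.

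The DNA just upstream of the called S100 genes differs in kind between members, and 5 stretches are shown so that the genes that moved in each direction can be compared. Each is the 250 bases before the gene's only start in the RefSeq table, assembly GRCh38.p14, read 5′ to 3′ on the strand of the gene. S100A4 (chr1:153545807-153546056, minus strand) and S100A14 (chr1:153616326-153616575, minus strand) were higher in LoVo. S100A9 (chr1:153357604-153357853, plus strand), S100P (chr4:6693628-6693877, plus strand) and S100A11 (chr1:152037005-152037254, minus strand) were higher in GP5d. Capitals mark matches, searched on both strands, to TATAAA, known from the TATA-binding protein, to CCAAT, known from the factor NF-Y, to GGGCGG, known from SP1, or to TGANTCA, known from AP-1. In the stretches shown, matches do not overlap one another.
S100A4: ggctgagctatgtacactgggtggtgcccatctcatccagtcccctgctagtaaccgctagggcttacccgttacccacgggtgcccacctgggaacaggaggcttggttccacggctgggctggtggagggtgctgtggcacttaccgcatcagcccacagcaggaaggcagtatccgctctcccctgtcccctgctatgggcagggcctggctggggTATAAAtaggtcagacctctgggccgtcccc
S100A14: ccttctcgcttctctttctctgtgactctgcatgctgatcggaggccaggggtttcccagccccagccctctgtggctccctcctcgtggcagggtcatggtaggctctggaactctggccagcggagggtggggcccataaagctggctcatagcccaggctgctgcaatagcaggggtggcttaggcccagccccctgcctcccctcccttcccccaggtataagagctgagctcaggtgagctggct
S100A9: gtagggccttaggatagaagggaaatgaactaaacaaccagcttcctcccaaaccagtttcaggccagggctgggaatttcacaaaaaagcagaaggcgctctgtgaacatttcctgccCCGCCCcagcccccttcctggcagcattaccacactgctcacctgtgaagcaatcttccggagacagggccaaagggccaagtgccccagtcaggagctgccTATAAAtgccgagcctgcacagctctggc
S100P: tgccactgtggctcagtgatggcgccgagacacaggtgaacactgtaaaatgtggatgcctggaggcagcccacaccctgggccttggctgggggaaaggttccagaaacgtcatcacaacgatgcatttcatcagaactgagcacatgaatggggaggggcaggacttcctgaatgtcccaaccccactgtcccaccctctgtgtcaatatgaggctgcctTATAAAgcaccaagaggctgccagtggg
S100A11: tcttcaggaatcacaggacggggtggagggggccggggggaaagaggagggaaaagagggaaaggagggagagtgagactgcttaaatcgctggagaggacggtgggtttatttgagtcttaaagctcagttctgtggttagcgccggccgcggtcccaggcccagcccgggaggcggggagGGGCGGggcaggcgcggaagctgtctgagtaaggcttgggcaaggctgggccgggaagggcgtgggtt

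A TATAAA match began 31 bases before the start of S100A4, 29 before S100A9 and 28 before S100P, so it was found in genes of both directions. S100A8 had it 29 bases before 1 of its 3 RefSeq starts. At 25 to 35 bases before the start, it stood in 2.64% of all 35116 RefSeq start windows, and anywhere in the 250 bases in 10.7%. S100A14 held no exact match to any of the 4 motifs. Near matches, such as tataag in its stretch, were not counted. GGGCGG was found once in S100A11, S100A9, S100A10 and in 1 of 2 windows of S100A16, and at 3 positions in S100A6, beside 42.6% of all windows. CCAAT (32% of all windows) was found in a window of S100A16 and in one of S100A8, and TGANTCA (6.57%) in 1 of the 2 windows of S100A2. The windows of S100A6 and S100A10 held 24 CpG dinucleotides each and that of S100A11 held 15, whereas no window of the other 7 genes held more than 7. The median over all windows was 11 CpG. Matches describe these letters only and were not set against binding data.

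**Figure D2:**
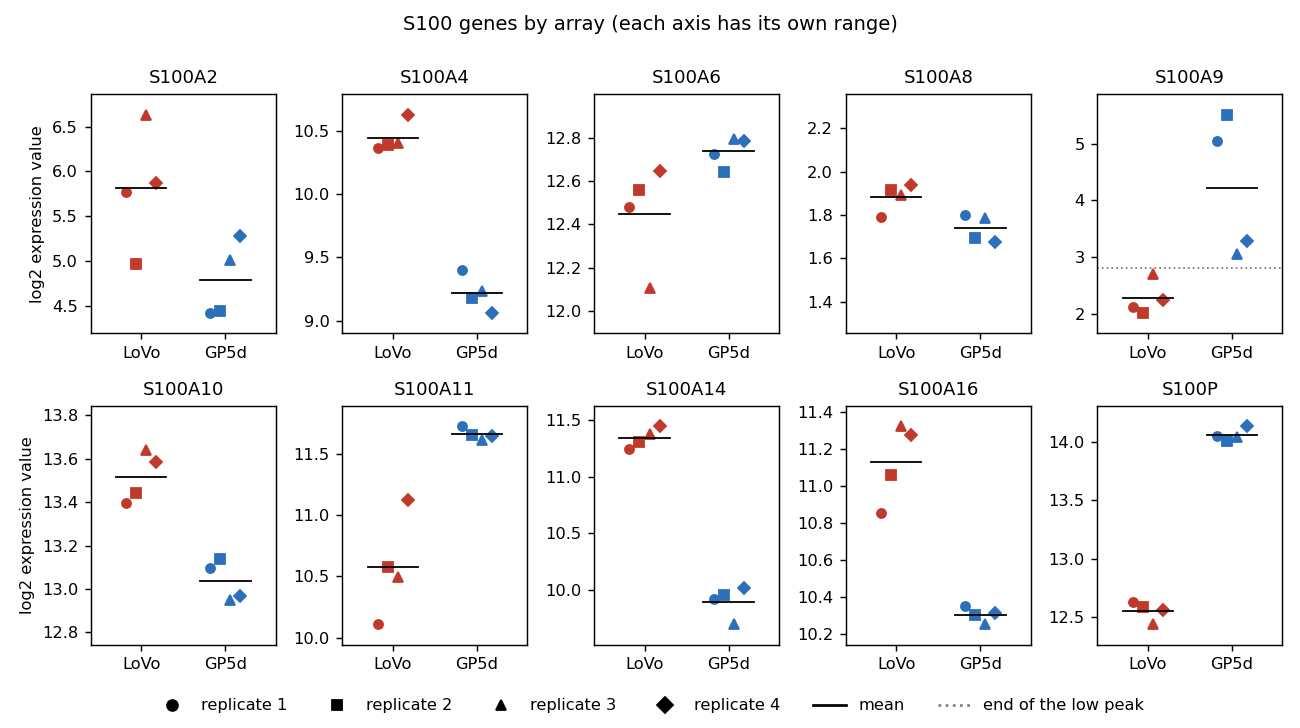
The vertical axes give the deposited log2 value on each of the 4 LoVo and 4 GP5d arrays for the 10 S100 genes, with symbols for the replicate, a black line for the mean and a dotted line for the end of the low peak where it falls in range; each panel has its own range. The lines do not overlap for S100A4, S100A9, S100A10, S100A11, S100A14, S100A16 and S100P, and S100A9 splits the GP5d arrays into a higher and a lower pair.

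Among the members that cells can release, S100P was higher in GP5d by a margin well above the spread between arrays. S100P (ENSG00000163993_at), a ligand of RAGE that also binds ezrin inside cells, had log2 values of 12.63, 12.58, 12.44 and 12.56 on LoVo arrays 1 to 4, against 14.05, 14.002, 14.04 and 14.13 on GP5d arrays 1 to 4. Every GP5d value was above every LoVo value, and both lines were far above the low peak. LoVo averaged 12.55 ± 0.0784 and GP5d averaged 14.06 ± 0.0549 (SD, n = 4 each). The log2 difference, LoVo minus GP5d, was -1.501 (SE 0.0752, 95% interval -1.67 to -1.33, limma adjusted p = 1.66e-07), and treat against the 2-fold limit gave an adjusted p of 0.000835.

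Of the calprotectin partners, S100A9 was called and S100A8 lay in the low peak of both lines. S100A9 (ENSG00000163220_at) had log2 values of 2.12, 2.02, 2.69 and 2.24 on LoVo arrays 1 to 4, against 5.05, 5.50, 3.06 and 3.28 on GP5d arrays 1 to 4. It lay within the low peak on all 4 LoVo arrays and above it on all 4 GP5d arrays, with GP5d replicates 1 and 2 well above replicates 3 and 4. LoVo averaged 2.27 ± 0.296 and GP5d averaged 4.22 ± 1.23 (SD, n = 4 each). The S100A9 difference, LoVo minus GP5d, was -1.95 on the log2 scale (SE 0.502, 95% interval -3.08 to -0.83, limma adjusted p = 0.0097) on the deposited scale. That SE and interval take the spread as equal in both lines, although most of it lay in GP5d. Measured against the upper end of the low peak in place of the LoVo values, the GP5d mean of S100A9 was 2.66-fold higher. That figure is a mean over 4 unequal arrays and not a minimum. With low values raised to the end of the low peak on all arrays before the fit, the difference of -1.41 was no longer called (limma adjusted p = 0.139).

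The spread of S100A9 within GP5d was among the widest of any gene. Its values covered 2.45 log2 units across the 4 GP5d arrays, and 3 of the 19002 genes, S100A9 included, covered as much. Its LoVo values covered 0.672, which 19.4% of genes matched or exceeded. The size of the S100A9 difference therefore depended on which GP5d arrays were used. With GP5d replicates 1 and 2 left out it was -0.90, under 2-fold (limma adjusted p = 0.00961), and with replicates 3 and 4 left out it was -3.01 (limma adjusted p = 3.79e-05), a choice made after seeing the values. Both sizes take the LoVo values as deposited, within the low peak, so neither gives a reliable fold. GP5d replicates 3 and 4, at 3.06 and 3.28, lay little above the end of the low peak at 2.81. GP5d replicates 1 and 2 also correlated best with each other across all genes, at 0.9984, as did replicates 3 and 4, at 0.9983, and the labels name no batch. The part of a batch in the split was not tested.

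S100A8 (ENSG00000143546_at), the other calprotectin subunit, had log2 values of 1.79, 1.91, 1.89 and 1.94 on LoVo arrays 1 to 4, against 1.80, 1.70, 1.79 and 1.68 on GP5d arrays 1 to 4. All 8 lay within the low peak, where values have no reliable order, so no fold is given. It did not pass the test (log2 difference 0.14, 95% interval -0.02 to 0.31, limma adjusted p = 0.15). On GP5d arrays 1 and 2, where S100A9 was highest, S100A8 was at 1.80 and 1.70 and so not above the low peak. On the reference map, S100A12 is the only protein-coding gene between S100A9 and S100A8.

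The annexin partners differed in opposite directions. Within an array, S100A10 minus S100A11 averaged 2.94 ± 0.36 on LoVo arrays and 1.38 ± 0.0727 on GP5d arrays (SD, n = 4 each), without overlap. S100A10 (ENSG00000197747_at), also called p11, holds annexin A2 in a complex at the plasma membrane and has lost calcium binding. Its log2 values were 13.40, 13.44, 13.64 and 13.59 on LoVo arrays 1 to 4, against 13.10, 13.14, 12.95 and 12.97 on GP5d arrays 1 to 4. All LoVo values were above all GP5d values by a small margin. The log2 difference of 0.48 (SE 0.0872, 95% interval 0.28 to 0.67, limma adjusted p = 0.0013) was 1.39-fold, so it passed the adjusted p and not the 2-fold minimum.

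S100A11 (ENSG00000163191_at), a partner of annexin A1, had log2 values of 10.11, 10.57, 10.50 and 11.12 on LoVo arrays 1 to 4, against 11.72, 11.65, 11.61 and 11.64 on GP5d arrays 1 to 4. The GP5d arrays were nearly level and all above LoVo, while LoVo spread over 1.01 log2 units, a range that 5.80% of genes reached in that line. LoVo averaged 10.57 ± 0.415 and GP5d averaged 11.66 ± 0.0485 (SD, n = 4 each). The log2 difference was -1.08 (SE 0.176, 95% interval -1.48 to -0.69, limma adjusted p = 0.000618). Its size lay at the 2-fold limit: without LoVo replicate 1, the lowest array, it was -0.93 (limma adjusted p = 0.000894) and after quantile normalization it fell just short of 2-fold at -0.999 (limma adjusted p = 0.000926), so neither was called. RefSeq lists 10 pseudogenes named for S100A11, and probes that also match them were not separated out here.

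**Figure D3:**
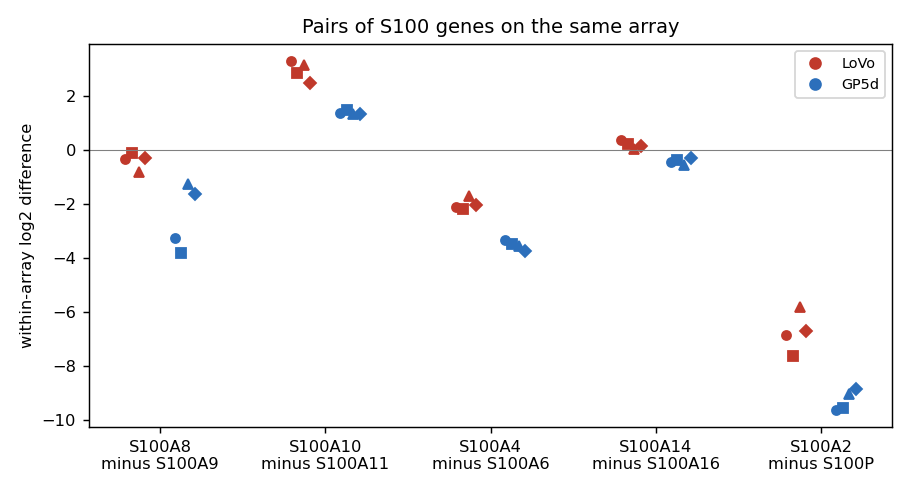
The vertical axis is the log2 value of one S100 gene minus that of another on the same array, for 5 pairs, with symbols for the replicates of LoVo and GP5d. For each pair the LoVo points lie above the GP5d points without overlap. In 4 pairs this shows unequal change of the genes and no order of level between them. S100A8 minus S100A9 only restates the S100A9 values, since S100A8 lay in the low peak on all 8 arrays. Other gene pairs were not compared, and 62.7% of single genes above the low peak on all 8 arrays also did not overlap.

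S100A4 and S100A6, with S100A5 the only protein-coding gene between them on the reference map, also differed from each other. S100A4 (ENSG00000196154_at), also called metastasin, binds non-muscle myosin and is known for promoting cell motility. Its log2 values were 10.36, 10.39, 10.40 and 10.62 on LoVo arrays 1 to 4, against 9.40, 9.18, 9.23 and 9.07 on GP5d arrays 1 to 4. Every LoVo array was above every GP5d array, and both lines were far above the low peak. LoVo averaged 10.44 ± 0.12 and GP5d averaged 9.22 ± 0.139 (SD, n = 4 each), and the log2 difference was 1.22 (SE 0.0971, 95% interval 1.01 to 1.44, limma adjusted p = 4.34e-06). Whether any probes of S100A4 also match the neighbouring S100A5 was not examined here.

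S100A6 (ENSG00000197956_at), or calcyclin, which binds the ubiquitin-ligase adaptor CACYBP, had log2 values of 12.48, 12.56, 12.11 and 12.65 on LoVo arrays 1 to 4, against 12.73, 12.64, 12.79 and 12.79 on GP5d arrays 1 to 4. The lines overlapped, with LoVo replicate 3 the lowest of the 8. The difference of -0.29 did not pass the test (95% interval -0.55 to -0.03, limma adjusted p = 0.073). Without LoVo replicate 3 it was -0.17 (limma adjusted p = 0.085), and without LoVo replicate 4 it was -0.36 and passed the adjusted p at 0.0408 (limma), still under 2-fold. The value of S100A4 minus S100A6 within an array averaged -2.00 ± 0.211 on LoVo arrays and -3.52 ± 0.166 on GP5d arrays (SD, n = 4 each), with no overlap.

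S100A14 and S100A16 are next to each other on the reference map, have atypical EF-hands and can bind one another as proteins. Both were higher in LoVo. S100A14 (ENSG00000189334_at), mainly found in epithelia, had log2 values of 11.25, 11.30, 11.38 and 11.44 on LoVo arrays 1 to 4, against 9.92, 9.95, 9.70 and 10.01 on GP5d arrays 1 to 4. The lines were more than 1 log2 unit apart at their closest arrays. Its log2 difference of 1.45 was the largest of the 10 in favour of LoVo (SE 0.0907, 95% interval 1.24 to 1.65, limma adjusted p = 8.32e-07), and treat against the 2-fold limit gave an adjusted p of 0.00653.

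S100A16 (ENSG00000188643_at), which is expressed in many tissues, had log2 values of 10.85, 11.06, 11.32 and 11.28 on LoVo arrays 1 to 4, against 10.35, 10.30, 10.25 and 10.31 on GP5d arrays 1 to 4. LoVo was higher on every array, and its arrays spread more than those of GP5d, with SDs of 0.215 in LoVo and 0.0394 in GP5d. The log2 difference was 0.82 (SE 0.108, 95% interval 0.58 to 1.06, limma adjusted p = 0.000141), 1.77-fold and so under the minimum for a call, although the interval includes 2-fold. Within an array, S100A14 minus S100A16 averaged 0.22 ± 0.141 on LoVo arrays and -0.41 ± 0.11 on GP5d arrays (SD, n = 4 each), without overlap, so the neighbours changed in the same direction by different amounts.

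S100A2 (ENSG00000196754_at), a mainly nuclear protein best known from basal and squamous epithelium and from its binding to p53, is separated from S100A16 by no protein-coding gene. Its log2 values were 5.77, 4.97, 6.63 and 5.87 on LoVo arrays 1 to 4, against 4.43, 4.45, 5.01 and 5.28 on GP5d arrays 1 to 4. LoVo replicate 2 lay below GP5d replicates 3 and 4, so the lines overlapped, and LoVo replicate 3 was the highest. LoVo averaged 5.81 ± 0.679 and GP5d averaged 4.79 ± 0.422 (SD, n = 4 each). The log2 difference was 1.02 (SE 0.32, 95% interval 0.31 to 1.74, limma adjusted p = 0.0259). The call did not survive most omissions of 1 array: it was kept in 3 of 8. Without LoVo replicate 3 the difference was 0.75 (limma adjusted p = 0.0428), without LoVo replicates 1 or 4 it was 1.03 or 1.00 (limma adjusted p = 0.0507 and 0.0581), and without GP5d replicates 1 or 2 it was 0.90 or 0.91 (limma adjusted p = 0.0741 and 0.0734).

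Along chromosome 1, the direction among genes that passed the adjusted p changed between S100A10 and S100A11 and again between S100A9 and S100A4. S100A10 was higher in LoVo and the adjacent S100A11 higher in GP5d. After 47 other protein-coding genes came S100A9, higher in GP5d, and S100A8, in the low peak. The stretch that followed held S100A6, which did not pass, and then S100A4, S100A2, S100A16 and S100A14. All 4 of these were higher in LoVo with an adjusted p below 0.05, S100A16 by less than 2-fold. Over all genes 43.3% passed that rule, 4076 of these 8230 higher in LoVo. The adjusted p of S100A2 rose to as much as 0.0741 (limma) when 1 array was left out. The S100 genes that lie between them, such as S100A3 and S100A5, were not analysed here.

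Outside the family, the gene most like each leading member was found by the smallest root mean square difference of the 8 log2 values, each gene centred on its own mean. For S100A14 it was ENSG00000138119_at, with a root mean square difference of 0.0934 and means of 9.47 ± 0.126 on LoVo arrays and 7.995 ± 0.0936 on GP5d arrays (SD, n = 4 each). S100A9 leads the GP5d side on the deposited scale only. Its LoVo values lay within the low peak, so its order against S100P at 2.83-fold is not settled. For S100A9 it was ENSG00000107159_at, with a root mean square difference of 0.36. That row had log2 values of 2.80, 2.71, 2.49 and 2.81 on LoVo arrays 1 to 4, against 5.22, 5.74, 3.44 and 2.95 on GP5d arrays 1 to 4, so it too was higher on GP5d arrays 1 and 2 than on the other GP5d arrays. Both rows were picked for their likeness, and the sources used here pair neither with a symbol.

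**Figure D4:**
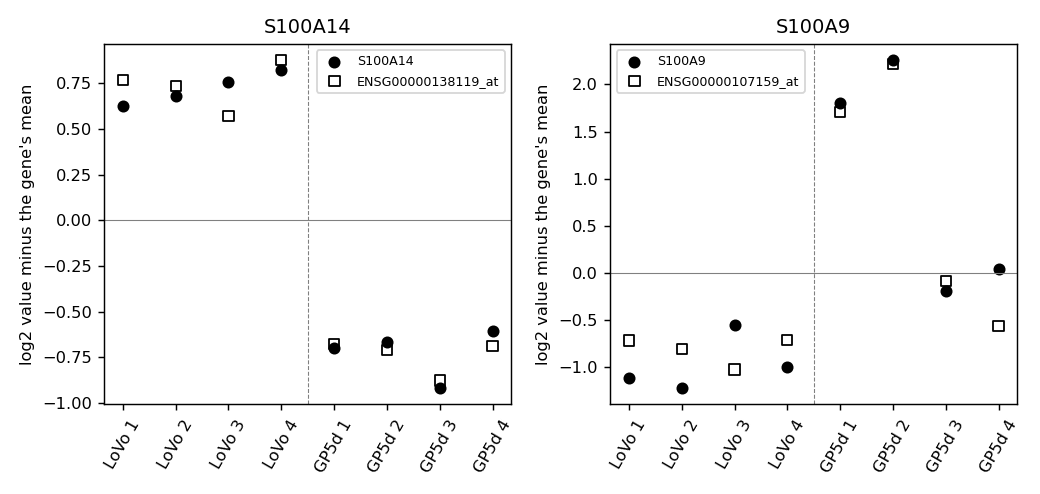
The vertical axes give log2 values after each gene's mean over the 8 arrays was subtracted, for S100A14 and S100A9 (filled circles) and the gene most like each (open squares), by array. S100A14 and its match separate the lines evenly, whereas S100A9 and its match are highest on GP5d arrays 1 and 2.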

How the data were processed

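The authors deposited 1 table of log2 values, 19002 Ensembl gene rows by 8 arrays (4 LoVo, 4 GP5d). RMA and GCRMA are both named, without a role or version, per the submitters' processing notes and the array type is not stated in the labels used. The base of the logarithm was taken from the range, 0.472 to 14.7. Values were compared as deposited. Symbols of the 10 rows came with the list of IDs that defines the family. The reference table pairs 0 genes with an Ensembl ID, so fixed lists of other S100 genes, binding partners and cell type markers could not be matched and were not analysed here. The members and lists were chosen with earlier results of these data known.

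The fit used limma 3.58.1 under R 4.3.3 (line as the only factor, 6 residual degrees of freedom, Benjamini-Hochberg adjustment over all genes). Each gene had a shared variance for both lines. The fit was tested on simulated data. The low peak ended at its mode (bins of 0.05, 1.88) plus 3 SDs (0.312 each) of the values below it. All 10 members were named. The nearest other gene was named for the called member with the largest difference on the deposited scale in each direction. Alternatives were 3 normalizations, a dim filter, a floor, other variance and array weighting, the replicate block, single arrays left out and other minimum differences. Arrays give no read depth, and their number limits the precision. Promoter windows came from RefSeq. Plots used matplotlib 3.10.9.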

Additional observations from a re-analysis of the deposited data

Results flagged for a closer look

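Of 20 comparisons asking whether 1 of the 4 arrays of a line stood far from the others for an S100 gene, 1 passed the 95% limit of Dixon's test. For S100A4, LoVo replicate 4 lay above the other 3 LoVo arrays, with a gap of 0.839 of the whole range. Chance flags about 1 in 20 such groups. The log2 difference without LoVo replicate 4 was 1.17, against 1.22 with it.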

How the results depend on the processing

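The count of 6 called S100 genes was 4 to 6 under the other normalizations, filters, variance settings and single omissions, and 8 with no minimum difference. A minimum log2 difference of 2 left 0 of 10, as no estimate reached it at any p (limma), and treat left 2. Over all genes the count of 2530 became 8230 with no minimum, 721 with a minimum of 2 and 1250 with treat, by construction. Single omissions gave 2499 to 2580. No S100 difference changed sign under any alternative, and that of S100A8 was 0 by construction with the floor. S100A4, S100A14 and S100P kept their calls in all 8 single omissions, S100A9 also did, S100A11 in 7 and S100A2 in 3. S100A2 also lost its call with array weights (0.78, limma adjusted p = 0.0417) and with the floor (limma adjusted p = 0.1). Its adjusted p ranged from 0.00412 to 0.0741 over the single omissions. The cause was not tested. Same-numbered arrays of the lines did not deviate together over all genes (correlations -0.0341 to 0.0488). Such correlations cannot show whether those arrays were handled together, and the labels name no pairing. With the replicate block 6 S100 genes and 2530 genes were called. The block lowered the adjusted p of S100A2 from 0.0259 to 0.00476 (limma) and raised that of every other member. S100 genes above the low peak numbered 8 on each LoVo array and 9 on each GP5d array, 9 on LoVo replicate 3 with its end at 2 SDs and 8 on GP5d replicate 3 at 4 SDs.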
